A study of Mus musculus with 4 samples.

Results

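A set of 951 accessible regions was called in both DR+/+ libraries and neither DR-/- library, and lay more than 200 kb from any site open in all 4 libraries. They were taken from 50231 union regions, each the merger of all peaks sharing 1 bp or more with a neighbour in any of the 4 lists, of which 47709 lay on the 19 autosomes. A region with a peak in all 4 lists is called common, and a region with a peak in both DR+/+ lists and in neither DR-/- list is called DR+/+-only. Of the autosomal regions, 4256 were DR+/+-only (8.92%), and 951 of these, the isolated DR+/+-only regions described here, had an edge-to-edge distance of more than 200 kb to the nearest common region on the same chromosome. The other 3305 are called flanking. The members were chosen by presence in the DR+/+ lists, absence from the DR-/- lists and this distance, so all 3 are given as a description and none was tested.

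The libraries came from mouse embryonic stem cells of the J1 line (strain 129SV), which were cultured feeder-free with serum and leukemia inhibitory factor. DR+/+ is the population positive for both MERVL and Zscan4c, and DR-/- the population negative for both, with 2 libraries each. Whether replicates were separate cultures is not stated, and what differs between them may therefore be technical. ATAC-seq marks accessible DNA by the sites where Tn5, a transposase loaded with sequencing adapters, can insert.

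MERVL is a family of endogenous retroviruses, and its long terminal repeats serve as promoters around the time the zygotic genome is activated. Zscan4c, a member of the Zscan4 gene family, is expressed in the same window. A small fraction of cultured embryonic stem cells passes through a state in which both are active and that resembles the early cleavage embryo. Accessible sites of embryonic stem cells concentrate at promoters and enhancers in gene-rich DNA, whereas long stretches of gene-poor DNA hold few of them. Whether a given region of this set lies in a gene or a repeat was not analysed here, because neither a gene table nor a genome of the files' build, mm9, was used. For the same reason the MERVL and Zscan4c status of the populations was not checked against their loci, and no sequence is shown.

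The 2 DR+/+ lists held 40933 (replicate 1) and 26866 peaks (replicate 2), and the DR-/- lists 21630 and 24432, without read totals. The fold enrichment and p-value of each peak together returned the reads piled up at its summit and the local background. The lowest background of a list was 1.66 and 1.62 reads in the DR+/+ lists and 1.31 and 1.47 reads in the DR-/- lists. It may mix depth with the length over which the background was counted, so it does not rank the lists by depth. The smallest summit pileup of any called autosomal peak was 8, 8, 7 and 8 reads in the same order.

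The isolated DR+/+-only regions were small and lay on all 19 autosomes. Their median width was 245 bp (interquartile range 192 to 328 bp), they covered 266.5 kb in all, and 61 of them (6.41%) were wider than 500 bp. Their median distance to a common region was 342 kb (interquartile range 263 to 488 kb). The farthest lay 1737 kb away, 223 lay more than 500 kb away and 22 more than 1000 kb away. For the flanking regions the median distance was 47.2 kb.

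The members nearest to the threshold overlapped in strength with the regions just short of it. The 3 members just beyond it lay 200.4, 200.7 and 200.7 kb from a common region. Their fold enrichment, a deposited value of the authors that compares the summit with the local background, was 5.34, 4.08 and 4.17 in DR+/+ replicate 1 and 4.63, 5.34 and 4.07 in replicate 2. The 3 DR+/+-only regions just short of it lay at 199.9, 199.8 and 199.8 kb, with 4.59-fold, 6.60-fold and 3.22-fold enrichment in replicate 1 and 4.53-fold, 5.18-fold and 3.39-fold in replicate 2.

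The isolated share was highest among DR+/+-only regions. The share farther than 200 kb from a common region was 22.3% for DR+/+-only regions (951 of 4256, 95% Wilson interval 21.1 to 23.6%), against 17.4% of all 35859 autosomal regions that were not common. For the mirror class, regions with a peak in both DR-/- lists and neither DR+/+ list (1.40% of autosomal regions), it was 12.7% (85 of 668, 10.4 to 15.5%). Intervals cover counting error only, and regions are not replicates of a population.

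Regions called in a single library, none of which is a member, showed the same order. Of those private to DR+/+ replicates 1 and 2, 19.5% (2499 of 12795, 18.9 to 20.2%) and 20.4% (684 of 3345, 19.1 to 21.8%) were isolated. Of those private to DR-/- replicates 1 and 2, 14.9% (307 of 2061, 13.4 to 16.5%) and 12.3% (341 of 2782, 11.1 to 13.5%) were. Their interval for DR+/+ replicate 2 overlapped that of the DR+/+-only class. The DR+/+ and DR-/- libraries did not overlap in this share, although the number of private regions differed 3.83-fold between the DR+/+ libraries. In an exact permutation test 2 against 2 libraries can give no p below 0.33.

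Regions shared between populations lay below the isolated share of the DR+/+-only class. In the 4 classes with 1 list of each population the share ran from 11.6% (51 of 438) to 15.3% (45 of 295). Regions in both DR+/+ lists and 1 DR-/- list were isolated in 18.2% (258 of 1420, 16.3 to 20.3%, with DR-/- replicate 1) and 15.3% of cases (370 of 2425, 13.9 to 16.7%, with DR-/- replicate 2). Regions in both DR-/- lists and 1 DR+/+ list were at 10.7% (182 of 1696) and 10.9% (33 of 302). Classes that held both DR+/+ lists thus ranked above those that held both DR-/- lists, although the lowest of the former and the highest of the latter had overlapping intervals.

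**Figure D1:**
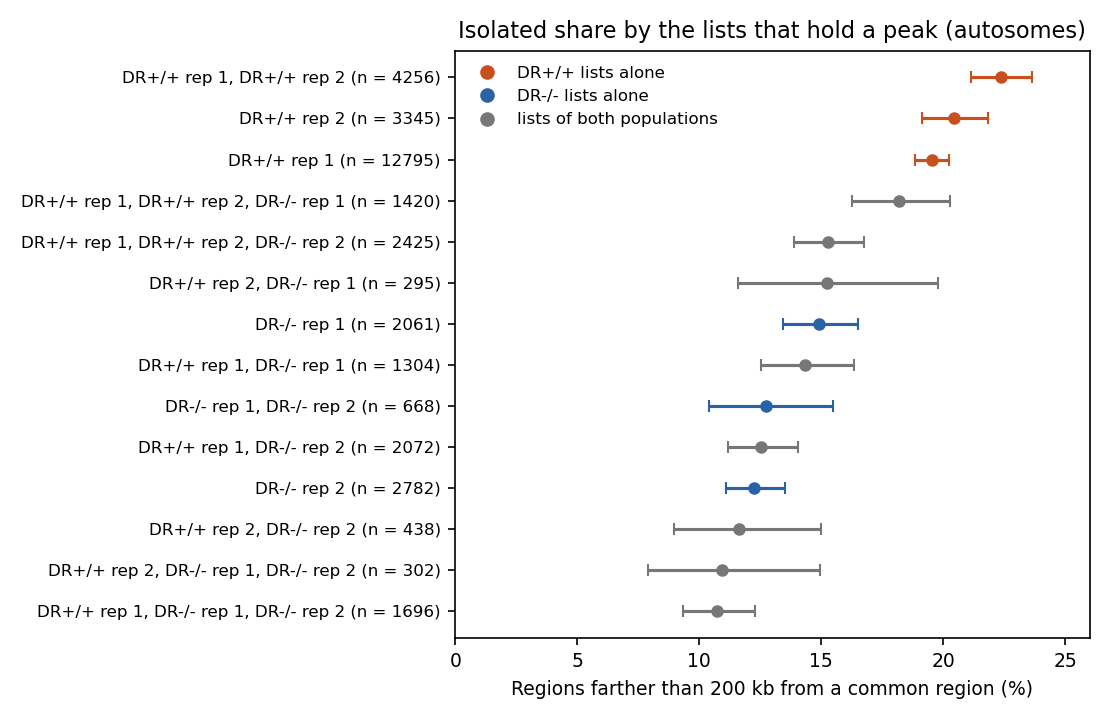
Share of autosomal regions farther than 200 kb from a common region (x axis, percent) for each combination of lists that hold a peak (y axis, n is the number of regions), with 95% Wilson intervals for counting error. The 3 classes found in DR+/+ lists alone sit between 19.5% and 22.3%, above the classes found in DR-/- lists alone, which sit between 12.3% and 14.9%.

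The isolated share did not follow the strength of the peaks. When DR+/+-only regions were split into quartiles of their q-value in DR+/+ replicate 1, the share from the weakest to the strongest quartile was 21.1, 22.9, 23.0 and 22.3%. In replicate 2 it was 20.7, 23.7, 22.3 and 22.7%. Each quartile held 1064 regions, and the Wilson intervals of all quartiles of a list overlapped.

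The difference from the DR-/- mirror class was kept when the lists were made equally long. After all lists were cut to the 21630 peaks with the best q-values, 28.8% of 1668 DR+/+-only and 16.0% of 1461 DR-/--only regions were isolated, while the number of isolated DR+/+-only regions fell to 480. The DR+/+-only share was the higher of the pair as reported and in each of 11 other settings (stricter or equally long lists, other overlaps, distances and definitions of common, and each library left out), by 2.55 to 12.8 percentage points. Without DR+/+ replicate 1, 1720 regions met the rule, and without DR+/+ replicate 2, 3089 did, with isolated shares of 21.3% and 17.7%. Leaving out a list changes 2 choices together, since DR+/+-only then needs 1 DR+/+ list and common needs a peak in the 3 remaining lists, which also changes the distances.

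Per length of DNA, DR+/+-only regions were less dense far from common regions than near them, but their density fell less than that of DR-/--only regions. Between the first and last common region of each autosome, 678 Mb of 2411 Mb (28.1%) lay farther than 200 kb from a common region. This DNA held 947 of the members, or 1.40 per Mb (exact 95% Poisson interval 1.31 to 1.49), and the remaining 4 lay beyond the first or last common region of their chromosome. Within 200 kb of common regions the density of DR+/+-only regions was 1.91 per Mb (1.84 to 1.97), so the density beyond 200 kb was 0.732 of that within. For DR-/--only regions the densities were 0.124 per Mb beyond (0.0989 to 0.153) and 0.336 per Mb within (0.309 to 0.364), a ratio of 0.369.

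The same ratio separated the libraries when only private regions were counted. It was 0.618 and 0.654 for DR+/+ replicates 1 and 2, and 0.446 and 0.356 for DR-/- replicates 1 and 2. The densest class was not that of the members. Regions private to DR+/+ replicate 1 numbered 3.67 per Mb beyond 200 kb and made up 40.0% of the 6253 isolated regions that were not common, against 15.2% for the members.

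The density of the members was nearly level from 200 kb to 1000 kb. It was 1.43 per Mb at 200 to 300 kb (1.29 to 1.59), 1.47 at 300 to 500 kb (1.32 to 1.63) and 1.33 at 500 to 1000 kb (1.15 to 1.53). Beyond 1000 kb, where only 27.5 Mb of DNA and 22 members lay, it was 0.80 per Mb (0.501 to 1.21). Within 50 kb of common regions the density of DR+/+-only regions was 2.12 per Mb (2.02 to 2.22). DR-/--only regions had 0.440 per Mb within 50 kb. At 500 to 1000 kb they had 0.0926 per Mb (14 regions, 0.0506 to 0.155), which is 0.210 of the first value, whereas DR+/+-only regions kept 0.628. Regions private to DR+/+ replicates 1 and 2 kept 0.461 and 0.512, and those private to DR-/- replicates 1 and 2 kept 0.281 and 0.181. Beyond 1000 kb DR+/+-only regions kept 0.378 and DR-/--only regions, of which 3 lay there, 0.248.

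**Figure D2:**
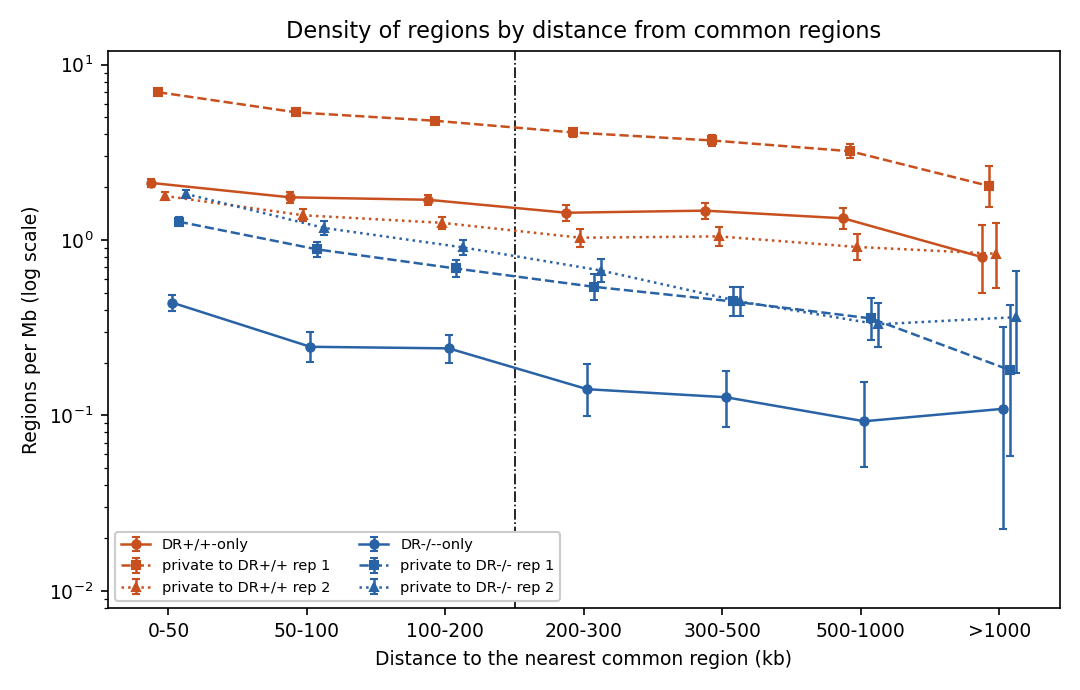
Regions per Mb of DNA (y axis, log scale) by distance to the nearest common region (x axis, kb), for regions called in both lists of 1 population alone and for regions private to 1 list, with exact 95% Poisson intervals for counting error. The dash-dot line marks 200 kb, to the right of which DR+/+-only regions are the members, with 1.33 to 1.47 regions per Mb between 200 and 1000 kb.

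Within the DR+/+ lists the members were peaks of ordinary strength for their class. In DR+/+ replicate 1 their fold enrichment ran from 3.02 to 9.52 with a median of 4.85, and in replicate 2 from 3.08 to 8.40 with a median of 4.59. The summit pileup had a median of 15 reads in replicate 1 (range 9 to 38) and 13 reads in replicate 2 (range 8 to 35), so single members rest on few reads. By q-value the median member stood at the 45.6th percentile of all peaks in replicate 1 and at the 33.7th in replicate 2.

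Isolated and flanking regions differed little in strength. The median fold enrichment was 4.85 against 4.78 in DR+/+ replicate 1 and 4.59 against 4.51 in replicate 2, a mean difference of 0.0754 between the classes. An exact two-sided sign permutation test over the 2 libraries gave p = 0.5, the smallest p it can give. The summit pileup had the same median of 15 reads in replicate 1 and was 13 against 14 reads in replicate 2. The median local background was lower at the members in both libraries, at 2.15 against 2.27 reads and 2.05 against 2.16 reads. This was not particular to the members. DR-/--only regions split at the same 200 kb had 1.57 against 1.91 and 1.80 against 2.12 reads in DR-/- replicates 1 and 2. Common regions more than 200 kb from another common region had 2.60 and 2.43 reads in DR+/+ replicates 1 and 2, against 2.76 and 2.60 at all common regions.

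Members were somewhat wider than flanking regions. Their peaks had median widths of 195 against 179 bp in replicate 1 and 165 against 157 bp in replicate 2, and the merged regions measured 245 against 223 bp. Common regions, at 366 bp, were wider than both, and merging over more lists adds to their width. Peaks at common regions more than 200 kb from another common region were also wider than those at all common regions. Their medians were 326 against 302 bp in replicate 1 and 264 against 255 bp in replicate 2. Merged DR-/--only regions measured 181 bp on both sides of 200 kb. In replicate 2 the 10th percentile of width was 115 bp, the shortest peak of the list, at members and flanking regions alike. At the members 6.73% and 8.41% of peaks in replicates 1 and 2 had the lowest background of the list, compared with 6.14% and 5.42% at flanking regions and 1.55% and 1.81% at common regions.

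**Figure D3:**
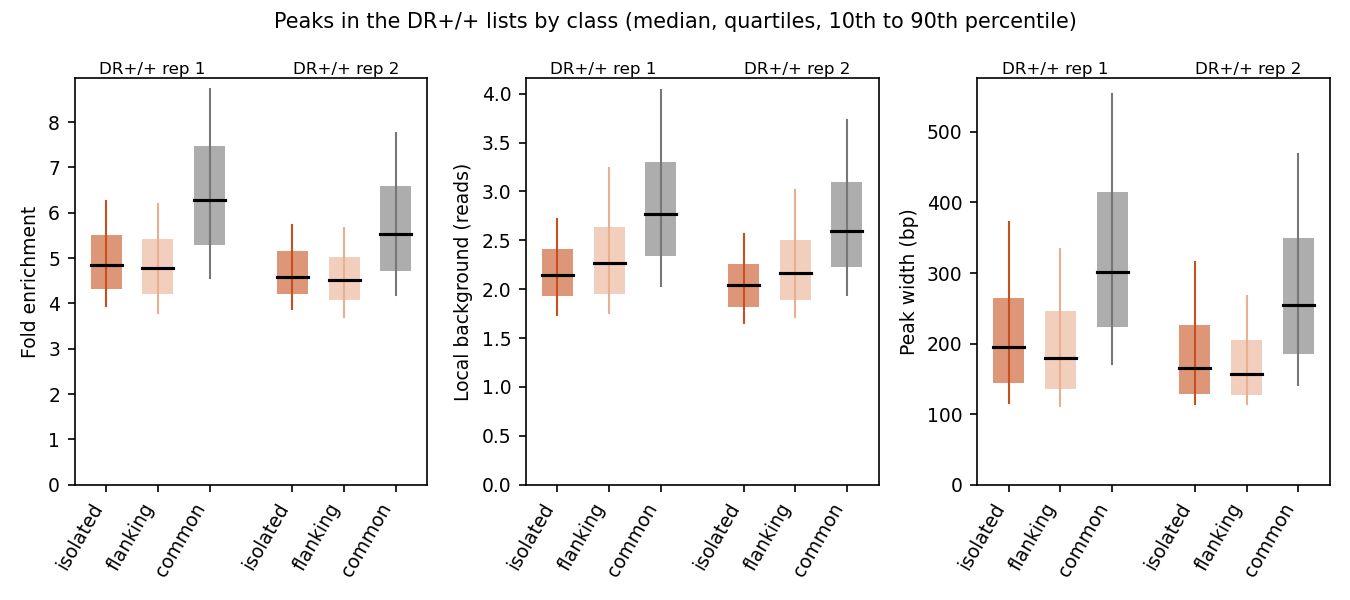
Fold enrichment, local background in reads and peak width in bp of peaks in both DR+/+ lists (y axes) at isolated DR+/+-only, flanking DR+/+-only and common regions (x axes), where black lines are medians, boxes quartiles and thin lines the 10th to 90th percentile over regions. Isolated and flanking regions overlap almost fully, with median folds of 4.85 and 4.78 in replicate 1, and common regions are higher in each panel.

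The 2 DR+/+ libraries placed the members less precisely than they placed common regions. The summits of the 2 peaks lay a median of 49 bp apart at members (interquartile range 20 to 94 bp), 42 bp at flanking and 36 bp at common regions. Summits within 50 bp of each other were found at 485 members (51.0%), 56.7% of flanking and 62.7% of common regions. The peaks overlapped by at least 50% of both at 643 members (67.6%), 73.5% of flanking and 84.3% of common regions. The peaks were also wider than those of flanking regions and weaker than those of common regions, and the part of width and strength in this order was not tested.

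Fold enrichment was only loosely shared between the replicates. Across the 951 members Pearson's r between the lists was 0.360 and Spearman's rho 0.314. The values were 0.379 and 0.323 across flanking regions and 0.819 and 0.661 across common regions, whose folds span a wider range. These are correlations across regions of the same 2 libraries and are given as a description. The fold was higher in replicate 1 at 563 members (59.2%), 59.7% of flanking and 71.7% of common regions. In both lists 175 members (18.4%) ranked above the median peak, against 16.9% of flanking and 70.4% of common regions. The strongest quartile of both lists held 25 members (2.63%), 1.75% of flanking and 41.2% of common regions. The members were thus close to flanking regions in these shares.

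The strongest members, ranked by the mean percentile of their q-values, were found on several chromosomes. All positions are of mm9 and 1-based. The first lay on chromosome 12 at 21701919 to 21702240, a region of 322 bp that was 278 kb from the nearest common region. Its summit pileups were 22 reads in replicate 1 and 21 in replicate 2, over the lowest background of each list. Fold enrichment was 8.64 and 8.40, and the summits were 17 bp apart. No other called region lay within 97.6 kb of it, and the nearest region with a DR-/- peak was 264 kb away.

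The second lay on chromosome 19 at 13234464 to 13234701, where the folds of replicates 1 and 2 were 8.30 and 7.52. The third, on chromosome 7 at 69084848 to 69085211, had 23 reads in each library, 7.44-fold and 7.17-fold enrichment, and summits 3 bp apart. The fourth, on chromosome 6 at 64281906 to 64282150, was 690 kb from a common region, with 7.56-fold and 6.46-fold enrichment. The fifth lay on chromosome 5 at 112460912 to 112461492, was 581 bp wide, and had 20 reads in each library. Their high ranks in both replicates follow largely from the choice by mean percentile. The fold was larger in replicate 1 in the first 4.

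Over the 12 strongest members fold enrichment spanned 5.67 to 8.64 in replicate 1 and 5.90 to 8.40 in replicate 2, with 18 to 26 and 18 to 24 reads at the summit. Their distances to a common region ran from 237 to 690 kb. Chromosome 9 held 3 of them, at 58670311 to 58670620, 18964287 to 18964956 and 97823488 to 97823671. The last, of 184 bp, had no other DR+/+-only region within 1573 kb.

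The members farthest from common regions were of unequal strength. The farthest lay on chromosome 9 at 28844173 to 28844348, 1737 kb from a common region, with 13 and 14 reads at the summit and 4.90-fold and 5.32-fold enrichment. No other region of any class lay within 371 kb of it. The next, on chromosome 6 at 74948482 to 74948636, was 1653 kb away, with 6.57-fold and 5.65-fold enrichment and summits 2 bp apart. The third, on chromosome 8 at 104520652 to 104521011, was 1636 kb away and had 7.18-fold and 5.32-fold enrichment. On chromosome 14, the member at 109744843 to 109745214 was 1588 kb away, with 4.15-fold and 4.06-fold enrichment and ranks at the 30.0th and 18.0th percentile of the lists. The fifth, on chromosome 3 at 12794280 to 12794522, was 1397 kb away, with 13 and 12 reads.

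The widest member measured 1067 bp, on chromosome 14 at 116632144 to 116633210, and lay 1116 kb from a common region with 20 and 21 reads at its summits. The others were on chromosome 12 at 99058206 to 99059238 (1033 bp) and chromosome 4 at 104970981 to 104971924 (944 bp). Their summits were 136, 237 and 469 bp apart between the replicates, so the 2 libraries peaked at different points of these regions.

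Isolation from common regions did not mean isolation from all peaks. The nearest other called region of any class was a median of 25.6 kb away from members and 10.6 kb from flanking regions. It lay within 1 kb at 223 members (23.4%) and 24.3% of flanking regions. A region called in DR+/+ lists alone lay within 1 kb of 170 members (17.9%), and of 13.6% of flanking regions.

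DR-/- peaks that belonged to no common region lay near many members. The nearest region with a DR-/- peak was a median of 104 kb from members. It was within 1 kb at 74 members (7.78%) and within 200 kb at 664 members (69.8%). Flanking regions are not a comparison here, since the rule places a common region, which holds DR-/- peaks, within 200 kb of each of them and bars one from the members. Without DR+/+-only regions that had a DR-/- peak within 1 kb, 877 members remained and the isolated share was 23.3%. Another DR+/+-only region lay within 200 kb of 471 members (49.5%), below the 56.8% of flanking and 54.2% of common regions. A DR-/--only region lay within 200 kb of 36 members (3.79%), against 11.9% of flanking and 15.3% of common regions. DR-/--only regions that were isolated also had fewer neighbours than those within 200 kb of a common region. A DR+/+-only region lay within 200 kb of 30.6% against 47.9% of them, and another DR-/--only region of 11.8% against 16.8%. The 2 kinds of neighbour are not to be set against each other, since there were 4256 DR+/+-only and 668 DR-/--only autosomal regions.

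Without read totals, the part of depth in a missing DR-/- peak cannot be told for single members. The lowest backgrounds of the DR-/- lists were 0.786 to 0.910 of those of the DR+/+ lists. These factors may mix depth with the length over which the background was counted, so they do not show that the DR-/- libraries were shallower. With pileup and background scaled by these factors, 878 of 951 members (92.3%) kept a p-value that the weakest peaks of both DR-/- lists also reached, as did 92.4% of flanking regions. Because members were selected for called peaks in both DR+/+ lists and the factors are near 1, most had to pass, and this says nothing about why DR-/- peaks are missing. Signal below the calling threshold is not recorded in peak lists, so absence of a DR-/- peak is not absence of accessibility.

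By chromosome, the number of members followed the amount of DNA far from common regions. Chromosome 1 held most members (81, in 59.9 Mb of such DNA), followed by chromosome 4 (79 in 43.2 Mb), and chromosome 19 fewest (16 in 15.8 Mb). Across the 19 autosomes Pearson's r between members and this length was 0.929 and Spearman's rho 0.914, as a description of these lists. By the rule members lie only in DNA this far from common regions, so a high value was largely set in advance. Pearson's r between members and the number of common regions was 0.779. Density was counted between the first and last common region of each chromosome, which kept 29 of the 30 members of chromosome 15. It ran from 1.00 member per Mb on chromosome 15 to 1.83 on chromosome 4, with a median of 1.39.

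Chromosomes 8, 7 and 14 had the highest isolated shares of their DR+/+-only regions, at 28.1% (66 of 235, 22.7 to 34.1%), 27.9% (70 of 251, 22.7 to 33.7%) and 27.8% (58 of 209, 22.1 to 34.2%). On these chromosomes 35.2, 33.8 and 33.5% of the span lay farther than 200 kb from common regions. Chromosomes 17 and 11 had the lowest shares, at 12.8% (24 of 188, 8.73 to 18.3%) and 15.7% (31 of 198, 11.3 to 21.4%), with 21.9 and 21.7% of their span so far from common regions.

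**Figure D4:**
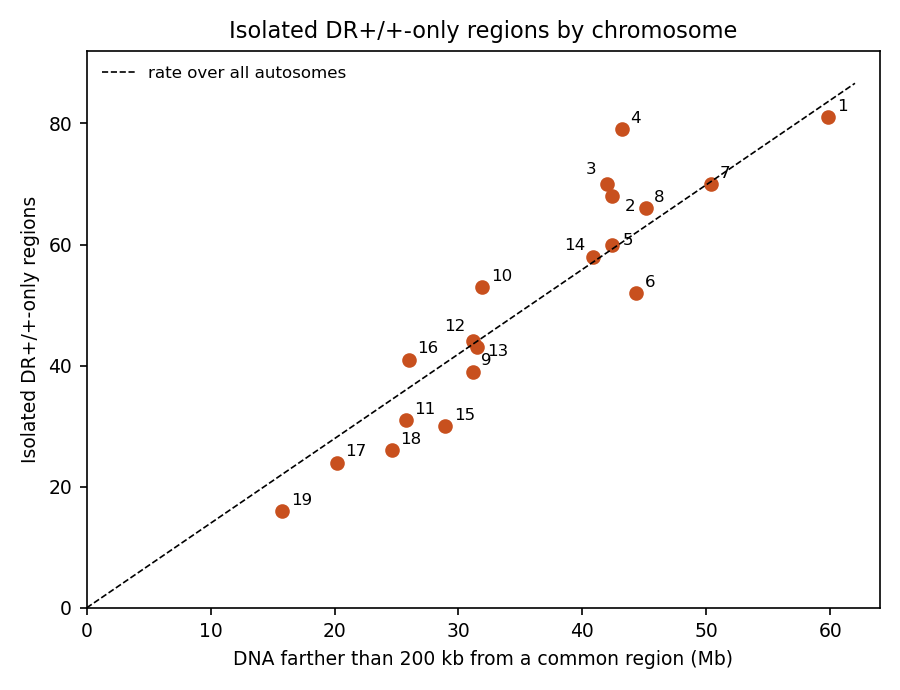
Number of isolated DR+/+-only regions (y axis) against the length of DNA farther than 200 kb from a common region (x axis, Mb) for the 19 autosomes, labelled by number, with a dashed line at the rate over all autosomes of 1.40 per Mb. Chromosome 4, with 79 regions, lies farthest above the line, and chromosomes 15 and 19, with 30 and 16, have the lowest rates.

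Most stretches free of common regions held no member. Of 1666 intervals longer than 400 kb between neighbouring common regions, 570 (34.2%) held at least 1 member, 346 of them a single one. Of these 570, 134 held 2 members, and 90 held 3 or more, with 333 members in those 90. Of the 360 intervals longer than 1000 kb, 262 held a member. The median interval measured 658 kb. By the rule a member lies more than 200 kb from both ends, so intervals little longer than 400 kb have almost no room for one. The share of intervals without a member was therefore partly set by the rule. The longest interval, 7379 kb on chromosome 7 from 39183689 to 46563141, held none, and only 3 peaks of each DR+/+ list and 1 and 2 of the DR-/- lists. The peak lists do not say how much of such an interval is assembled or can be mapped.

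Some members lay close enough to form runs, although the nearest DR+/+-only neighbour was in the median farther from members than from flanking regions. Another DR+/+-only region lay within 50 kb of 16.0% of members and 22.4% of flanking regions, at median distances of 201 and 161 kb. When members less than 500 kb apart were joined, 398 stood alone (41.9%) and 553 fell into 219 runs of 2 or more, of which 10 held at least 5. The fullest run, with 9 members over 1395 kb of chromosome 8 (103126304 to 104521011), held 14 and 10 peaks of DR+/+ replicates 1 and 2 and 0 of either DR-/- list. Fold enrichment of these members spanned 3.71 to 7.18 in replicate 1 and 3.77 to 5.56 in replicate 2. The spacing between neighbouring members of the run went from 0.053 to 417 kb. Members as close as 0.053 kb count separately in the size of a run. The interval around this run, 3733 kb long and without a common region, held 31 and 14 DR+/+ peaks, 2 and 5 DR-/- peaks and 10 members, the most of any interval.

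The next run, 7 members in 411 kb of chromosome 2 (87321402 to 87732287), held 12 and 9 DR+/+ peaks against 1 and 0 DR-/- peaks. Its members lay 638 to 1048 kb from a common region, in an interval of 2719 kb with 9 members. The closest neighbours among them were 0.597 kb apart. A run of 7 members in 966 kb of chromosome 5 (10763704 to 11729351) spanned 1 common region and held 11 and 8 DR+/+ peaks against 1 and 1 DR-/- peaks. The runs were chosen for holding DR+/+-only regions, so their low DR-/- counts are a description.

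A run of 6 members in 522 kb of chromosome 7 (11577761 to 12099628) differed in its background. The median local background at these members was 5.34 and 4.51 reads in DR+/+ replicates 1 and 2, against 2.15 and 2.05 at all members. Their summit pileups were 19 to 30 and 11 to 25 reads and their median folds 3.96 and 3.70, below the 4.85 and 4.59 of all members. The part of the background in this was not tested. A run of 6 members on chromosome 6 (61625138 to 62356984) had backgrounds of 2.09 and 1.93 reads and pileups of 10 to 18 and 10 to 15 reads. Its 732 kb held 8 and 9 DR+/+ peaks and 1 peak of each DR-/- list, and a union region with a DR-/- peak lay 0.116 kb from a member.

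**Figure D5:**
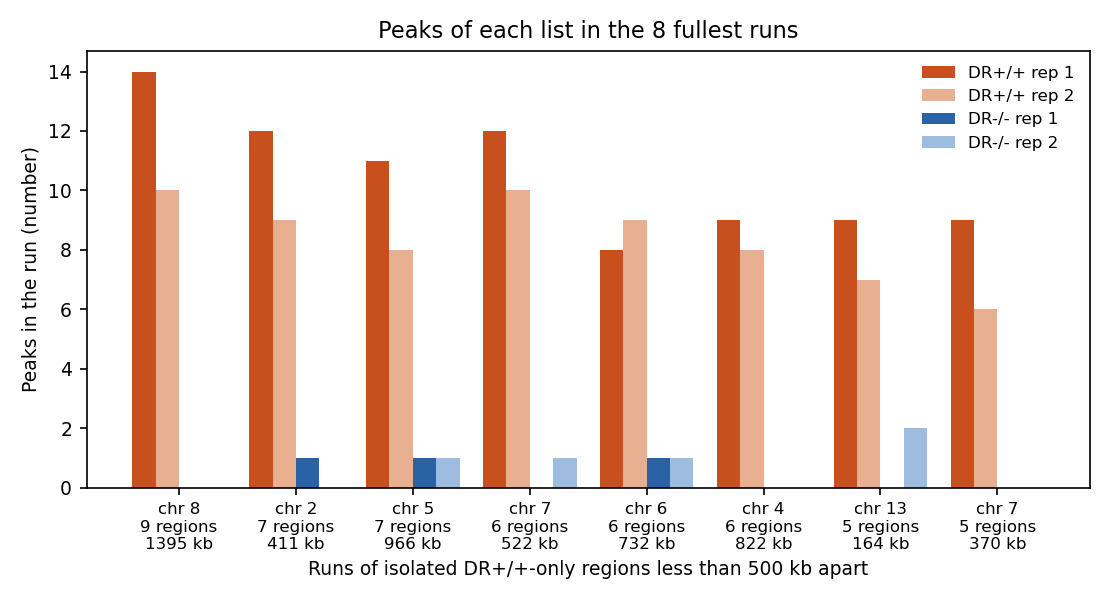
Number of peaks of each list (y axis) inside the 8 runs with the most isolated DR+/+-only regions (x axis, with chromosome, number of such regions and length), where a run joins members less than 500 kb apart. DR+/+ lists held 6 to 14 peaks per run and DR-/- lists 0 to 2.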

How the data were processed

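Groups and replicate numbers were taken from the titles of the 4 libraries. The submitters' processing notes name the build mm9 and the tools FastQC 0.10.1, Bowtie2 2.3.0 and SAMtools 0.1.19. For the peak caller, Tn5 offset correction, duplicates and multiply mapped reads, which decide whether repeats can hold peaks, the handling is "not given in the sources used here".

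The authors deposited 1 peak list per library, unpooled. Its columns, as deposited, hold a score (not used here), the fold enrichment or ratio, the −log10 p-value, the −log10 q-value and the summit. Values were ranked within a list only. Of several peaks of a list in 1 region, the best by q-value gave the strength and the widest the width.

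Pileup and background were solved from fold = (pileup + 1)/(background + 1) and a Poisson upper tail, which met the deposited −log10 p-value within 0.001 in 100% of peaks. Merging, distances and this step were tested on simulated data. Python 3.11.15, pandas 2.3.3, NumPy 2.4.6, SciPy 1.17.1 and Matplotlib 3.10.9 were used.

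Members, lists and rules were chosen with earlier results of these data known. The rule named the 12 strongest members by mean q-value percentile, the 5 farthest, the 3 widest, the 3 on each side of the threshold and the 5 fullest runs. Of the 12, the 8 given by position were picked after their values were seen. The alternatives were stricter or equally long lists, other overlaps, distances and definitions of common, and each library left out. Scaling to the lowest backgrounds of the DR-/- lists and omission of regions near DR-/- peaks were added after seeing the data. Gene groups and motifs, planned for an mm9 annotation or genome, were not analysed here.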

Additional observations from a re-analysis of the deposited data

How the results depend on the processing

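The number of isolated DR+/+-only regions (951) was 889 with the stronger 50% of each list, 1153 with 50% reciprocal overlap and 921 with gaps of 500 bp merged. It was 480 with lists of equal length, 1768 and 223 with thresholds of 100 and 500 kb, and 545 with common regions called in at least 3 lists. Leaving out 1 library gave 942 to 3089. The isolated share of DR+/+-only regions (22.3%) was, in the order stronger 50%, equal length, reciprocal overlap, 100 kb, 500 kb and at least 3 lists, 41.4, 28.8, 28.6, 41.5, 5.24 and 12.8%, and 16.2 to 21.3% without 1 library. That of DR-/--only regions (12.7%) was 33.4, 16.0, 21.3, 30.2, 2.69 and 7.04% in the same order, and 9.30 to 11.7% without 1 library. Fewer common regions lengthen all distances, and each of the thresholds moves both shares by construction. The difference in median fold between isolated and flanking regions (0.0754) stayed positive in each of these settings, from 0.00294 at 500 kb to 0.146 with lists of equal length. No paired analysis was possible because no result is a test of DR+/+ against DR-/- libraries, in which the replicate number could serve as a block. The 1 test, of isolated against flanking regions, already compares each DR+/+ library with itself. Pileups of about 15 reads limit the precision of single regions.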
